A study of Mus musculus with 6 samples.

Results

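The gene set described here holds 10 genes of the kinin, endothelin, angiotensin and protease-activated receptor systems. They are compared between sorted IL-11+ and IL-11- cells of the inflamed mouse colon, which the paper calls fibroblasts. The members were chosen by symbol and are *Bdkrb1*, *Bdkrb2*, *Ednra*, *Ednrb*, *Edn1*, *Ece1*, *Agtr1a*, *Agt*, *F2r* and *F2rl1*, which are 10 of the 20327 gene symbols counted. All of them were found, and 8 passed the filter on low values (10 or more tags in 3 or more of the 6 libraries) and were tested.

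RNA came from EGFP-Positive (IL-11+) and EGFP-Negative (IL-11-) cells of *Il11-Egfp* reporter mice on the C57BL/6 strain, 9 to 15 weeks old, which drank 1.5% dextran sulfate sodium (DSS) for 5 days and gave their colons on day 7, with 3 libraries in each group and 3 mice named in the methods. DSS damages the colon epithelium and causes colitis. Both groups thus carried the reporter and received DSS, and no untreated mice enter the comparison. The reporter is a transgene on a bacterial artificial chromosome that places *Egfp* under the *Il11* promoter, so that EGFP stands in for IL-11 and was the only marker that separated the groups. Both groups were sorted as Ter119-CD45-CD31-EpCAM- cells, which removes erythroid, hematopoietic, endothelial and epithelial cells and keeps all other stromal cells. Libraries were made by 5′Tag-seq, which counts tags near the 5′ end of polyA RNA, and held 1022851 to 1169817 tags. At this depth 3 tags, the floor used here, correspond to 2.56 to 2.93 CPM (counts scaled by the total of each library). Tags and shares of libraries are always given in the order of replicates 1, 2 and 3. Tags were amplified by PCR, so floors and counting intervals cover counting error only.

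*Il11* itself was counted with 28, 51 and 89 tags in the IL-11- libraries and with 1357, 732 and 2658 tags in the IL-11+ libraries. Every IL-11+ library was far above every IL-11- library (log2 fold change 4.98, SE 0.393), so the libraries follow their labels.

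All receptors among the members couple to G proteins and can raise intracellular calcium or activate RhoA. Kinins are cut from kininogens by kallikreins, endothelin-1 is released from its precursor by endothelin-converting enzyme, and angiotensin II is made from angiotensinogen by renin and angiotensin-converting enzyme, whereas the protease-activated receptors carry their own ligand, which is exposed when a protease cuts the receptor. In the gut wall these systems are known for vascular tone, smooth muscle contraction, vascular leakage and pain during inflammation.

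In IL-11+ fibroblasts the inducible kinin receptor *Bdkrb1* was higher and the angiotensin precursor *Agt* was lower, each past both thresholds of the study (adjusted p under 0.05 and fold change over 2). These are 1 higher and 1 lower of 8 tested members. Over all 9334 tested genes, 3.44% were called higher and 6.37% lower in the same fit. By adjusted p alone, 3 members were higher (*Bdkrb1*, *Bdkrb2* and *Ednra*) and 1 was lower (*Agt*), beside 6.84% higher and 8.7% lower over all tested genes. With the replicate number as a block in the same test, *Agtr1a* and *Ece1* were also under this threshold (adjusted p = 0.0412 and 0.0457), which gave 3 higher and 3 lower members by adjusted p, beside 9.33% higher and 11.2% lower over all tested genes in that fit. Among the tested members, the libraries of the groups did not overlap for 3 higher (*Bdkrb1*, *Bdkrb2* and *Ednra*) and 2 lower genes (*Agt* and *Ece1*), beside 14.5% and 16.7% of all tested genes, and they overlapped for 3. The tested members had a median log2 fold change of -0.13, beside -0.01 for all tested genes. In bulk RNA of sorted cells, fewer cells of a type and less RNA per cell cannot be told apart.

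**Figure D1:**
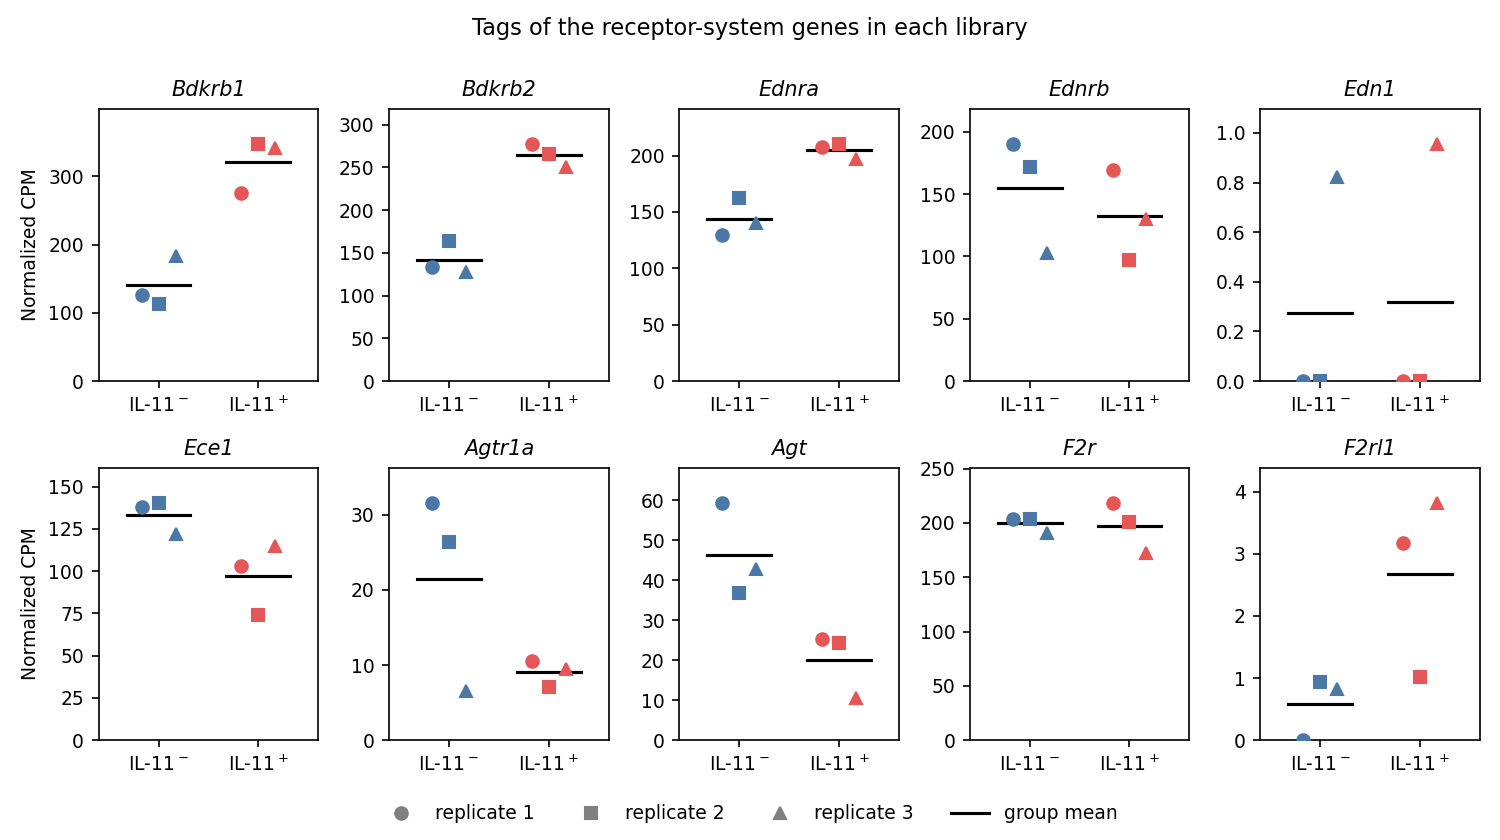
Normalized CPM (CPM over the tested genes after TMM scaling, linear axes from 0) of each member in the 6 libraries, with a symbol for each replicate number and a line at the group mean (n = 3). All 3 IL-11+ libraries lie above all 3 IL-11- libraries for *Bdkrb1*, *Bdkrb2* and *Ednra*, and all 3 lie below them for *Agt* and *Ece1*. The untested *F2rl1* is also apart, but by a margin that rests on 1 tag in each of the nearest libraries (1.02 and 0.942), while *Edn1* has at most 1 tag in any library.

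The kinin receptors come first. *Bdkrb1* encodes the B1 receptor, which is known to be scarce in healthy tissue, to be induced by injury and inflammation and to bind kinins that have lost their last arginine. It was counted with 132, 120 and 224 tags in the IL-11- libraries and with 260, 342 and 359 tags in the IL-11+ libraries. The lowest IL-11+ library lay above the highest IL-11- library, which was replicate 3, and the same-numbered libraries all differed in this direction (log2 differences of 1.13, 1.61 and 0.89). The mean level was 141 ± 37.7 normalized CPM in the EGFP-Negative and 321.7 ± 40 in the EGFP-Positive libraries (SD over 3 libraries). The log2 fold change was 1.19 (SE 0.193, 95% interval 0.78 to 1.59, Benjamini-Hochberg adjusted p = 0.000242, edgeR quasi-likelihood test, higher in 3 of 3 same-numbered pairs).

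*Bdkrb2* encodes the B2 receptor for intact bradykinin, which is present in many tissues without induction. Its tags numbered 139, 174 and 156 in the IL-11- libraries and 261, 262 and 262 in the IL-11+ libraries. The IL-11+ libraries were nearly equal and all above the IL-11- libraries. From 141.6 ± 19.5 to 264.2 ± 13.5 normalized CPM (SD over 3 libraries), the fold change was 1.87 (log2 0.90, SE 0.166, 95% interval 0.55 to 1.25, Benjamini-Hochberg adjusted p = 0.000779, edgeR quasi-likelihood test), which is under the fold threshold of 2, so the gene was not called. Without IL-11- replicate 2, its highest IL-11- library, the log2 fold change was 1.01 and the gene was called.

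Both kinin receptors were therefore higher in every IL-11+ library, and their ratio within a library shows whether 1 of them was more so. Of the tags of both receptors, *Bdkrb1* took 48.7%, 40.8% and 58.9% in the IL-11- libraries and 49.9%, 56.6% and 57.8% in the IL-11+ libraries. The ranges overlapped, and the log2 ratio was 0.31 higher in IL-11+ libraries (exact permutation test over libraries, two-sided, p = 0.5, adjusted p = 0.5 over 3 receptor pairs). Single libraries moved this value, to 0.05 without IL-11- replicate 2 and to 0.58 without IL-11- replicate 3. With 3 libraries against 3 this test cannot give a p under 0.1. No difference in the balance of B1 and B2 receptor tags was detectable with these libraries, and the shares are read only between groups, since levels of different genes are not compared here.

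The kinin receptor genes are neighbours on chromosome 12 of the mouse genome (GRCm38, GENCODE annotation). *Bdkrb2* lies at chr12:105563226-105595237 on the plus strand with 3 exons, and *Bdkrb1* lies at chr12:105603085-105605428 on the same strand, 7.8 kb further, with 0 annotated genes between them. Of the 50-nt windows in the first 300 nt of their transcripts, 0 occur in transcripts of another gene. Because *Bdkrb2* is the neighbour that moved in the same direction as *Bdkrb1*, the 250 bases before its RefSeq start are shown (GRCm38.p6, chr12:105562922-105563171, plus strand, 5′ to 3′), with the match to TGACNTCA in capitals.

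Bdkrb2 upstream: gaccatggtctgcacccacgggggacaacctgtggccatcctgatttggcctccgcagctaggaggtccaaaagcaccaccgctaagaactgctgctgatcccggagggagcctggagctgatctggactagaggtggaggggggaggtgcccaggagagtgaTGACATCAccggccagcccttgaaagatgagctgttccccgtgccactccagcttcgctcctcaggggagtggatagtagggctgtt

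The motif TGACNTCA resembles the cyclic AMP response element and was searched on both strands, and 7.49% of 32851 promoter windows of the same length hold it. The matched stretch begins 87 bases before the start. *Bdkrb2* was the only 1 of 7 members in the promoter table whose window holds it. The motifs were chosen after the sequences had been seen, and a match describes letters, not a bound site.

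In the endothelin system, *Ednra* (chr8:77663031-77724464, minus strand, 8 exons) encodes the endothelin A receptor, which mediates contraction and growth responses to endothelin-1. It had 136, 172 and 170 tags in the IL-11- libraries and 196, 207 and 207 in the IL-11+ libraries. The lowest IL-11+ library exceeded the highest IL-11- library by a narrow margin. The level went from 143.8 ± 16.5 to 205.1 ± 6.78 normalized CPM (SD over 3 libraries), a fold change of 1.43 (log2 0.51, SE 0.162, Benjamini-Hochberg adjusted p = 0.0383, edgeR quasi-likelihood test, higher in 3 of 3 same-numbered pairs), and was not called. Its adjusted p by edgeR or DESeq2 was under 0.05 in 6 of 19 alternative settings and ranged from 0.01 to 0.176 over them, with the highest value without IL-11- replicate 1.

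*Ednrb* (chr14:103814625-103844402, minus strand) encodes the endothelin B receptor, which binds all endothelins and also clears them. Its tags were 199, 183 and 126 in the IL-11- libraries and 159, 96 and 136 in the IL-11+ libraries. The groups overlapped, with IL-11- replicate 3 below 2 of the 3 IL-11+ libraries in normalized CPM. The log2 fold change of -0.23 (95% interval -0.71 to 0.24) includes 0 (Benjamini-Hochberg adjusted p = 0.568, edgeR quasi-likelihood test). With 1 library left out, the value ranged from -0.05 (without IL-11+ replicate 2) to -0.48 (without IL-11- replicate 3).

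The mean share of *Ednra* among the endothelin receptor tags was higher in the IL-11+ libraries, but the groups overlapped and no difference was established. The test used cannot give a p under 0.1 with 3 libraries against 3, and its result here was above that limit. *Ednra* made up 40.6%, 48.5% and 57.4% of the tags of both receptors in the IL-11- libraries and 55.2%, 68.3% and 60.3% in the IL-11+ libraries. The share was higher in 3 of 3 same-numbered pairs, but IL-11- replicate 3 overlapped the IL-11+ range. The log2 ratio differed by 0.74 (exact permutation test, two-sided, p = 0.2, adjusted p = 0.3 over 3 receptor pairs).

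The ligand gene *Edn1* was at or under the floor in every library, with 1 tag in IL-11- replicate 3, 1 tag in IL-11+ replicate 3 and 0 tags in the other libraries. No fold change is given for it, and a difference was not detectable at this depth. *Ece1* (chr4:137862237-137965229, plus strand), whose product cuts big endothelin-1 to the active peptide, had 145, 149 and 149 tags in the IL-11- libraries and 97, 73 and 121 in the IL-11+ libraries. Every IL-11+ library was below every IL-11- library, with replicate 3 of both groups nearly touching at 115 and 122 normalized CPM. The log2 fold change of -0.45 (SE 0.185, 95% interval -0.84 to -0.07) had a Benjamini-Hochberg adjusted p of 0.115 in the edgeR quasi-likelihood test and was not called. Without IL-11+ replicate 2 the log2 fold change was -0.28, and without IL-11+ replicate 3 it was -0.59 (adjusted p = 0.426 and 0.0606, edgeR quasi-likelihood test).

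Of the 2 other endothelin genes counted, *Edn3* and *Ece2*, none reached the filter. *Edn3*, another endothelin ligand, had 9, 6 and 12 tags in the IL-11- libraries and 0, 2 and 2 in the IL-11+ libraries. These values are given without a test. *Edn2* was not analysed here.

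In the angiotensin system the precursor was lower in every IL-11+ library, and the receptor was lower than in 2 of the 3 IL-11- libraries. *Agt* encodes angiotensinogen, the substrate of renin. It was counted with 62, 39 and 52 tags in the IL-11- libraries and with 24, 24 and 11 tags in the IL-11+ libraries. All IL-11+ libraries were below the lowest IL-11- library, replicate 2, and the same-numbered libraries differed by -1.20, -0.58 and -1.97 on the log2 scale. Its mean was 20.1 ± 8.34 normalized CPM in the IL-11+ and 46.21 ± 11.6 in the IL-11- libraries (SD over 3 libraries). The log2 fold change was -1.21 (SE 0.309, 95% interval -1.85 to -0.56, Benjamini-Hochberg adjusted p = 0.0109, edgeR quasi-likelihood test, lower in 3 of 3 same-numbered pairs). The call depended on single libraries: without IL-11- replicate 1 the log2 fold change was -1.01, and without IL-11+ replicate 3 it was -0.88, and neither fit called the gene by edgeR's quasi-likelihood test (adjusted p = 0.0638 and 0.0531, over a range of 0.000511 to 0.069 in all alternatives).

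*Agtr1a* (chr13:30336441-30382867, plus strand) encodes the main mouse type 1 receptor for angiotensin II. Its tags were 33, 28 and 8 in the IL-11- libraries and 10, 7 and 10 in the IL-11+ libraries. IL-11- replicates 1 and 2 stood well above all other libraries, whereas IL-11- replicate 3, at 6.57 normalized CPM, was below all IL-11+ libraries (7.11 to 10.6). The log2 fold change of -1.21 (SE 0.474, 95% interval -2.20 to -0.21) was as large as that of *Agt* but was not called (Benjamini-Hochberg adjusted p = 0.0998, edgeR quasi-likelihood test).

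The call of *Agtr1a* changed with the setting. When the replicate number entered as a block, the estimate was -1.12 and the gene was called lower (adjusted p = 0.0412, edgeR's quasi-likelihood test with the block). Without IL-11- replicate 3 it was -1.68 and called (adjusted p = 0.00421 by edgeR), and over all alternatives the adjusted p ranged from 0.00397 to 0.394. Of 809 windows of 50 nt near the 5′ ends of its transcripts, 3 also occur in other annotated genes (*Gm11027* and *Gm14745*), and the gene overlaps *Gm48161* on its own strand, so some of its few tags can belong to these genes. The second type 1 receptor gene, *Agtr1b*, had 0, 7 and 3 tags in the IL-11- libraries and 1, 0 and 1 in the IL-11+ libraries and was not tested.

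*Agt* lies at chr8:124556534-124569706 on the minus strand of GRCm38, with 5 exons. Because it was the member called lower, the 250 bases before its RefSeq start are shown (GRCm38.p6, chr8:124569707-124569956, minus strand, 5′ to 3′), with the match to TATAAA in capitals.

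Agt upstream: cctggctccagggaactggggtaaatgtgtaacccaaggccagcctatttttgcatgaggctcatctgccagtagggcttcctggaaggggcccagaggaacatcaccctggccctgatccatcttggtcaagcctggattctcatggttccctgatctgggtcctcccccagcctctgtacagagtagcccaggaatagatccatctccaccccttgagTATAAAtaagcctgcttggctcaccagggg

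The TATA box letters begin 30 bases before the start. TATAAA was searched on both strands and is held by 12.4% of the 32851 windows, and *Agt* is the only member of the 7 in the table with a match. Other motifs searched on both strands in the 7 members were the AP-1 motif TGANTCA (1 member, *F2r*, and 6.75% of all windows), CCAAT (3 members and 33.8%), GGGCGG (2 members and 32.7%) and the NF-kB motif (1 member, *Ednrb*, and 7.25%). Neither of the printed windows holds any of these. *Bdkrb1*, *Agtr1a* and *F2rl1* have no entry in the RefSeq promoter table used.

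**Figure D2:**
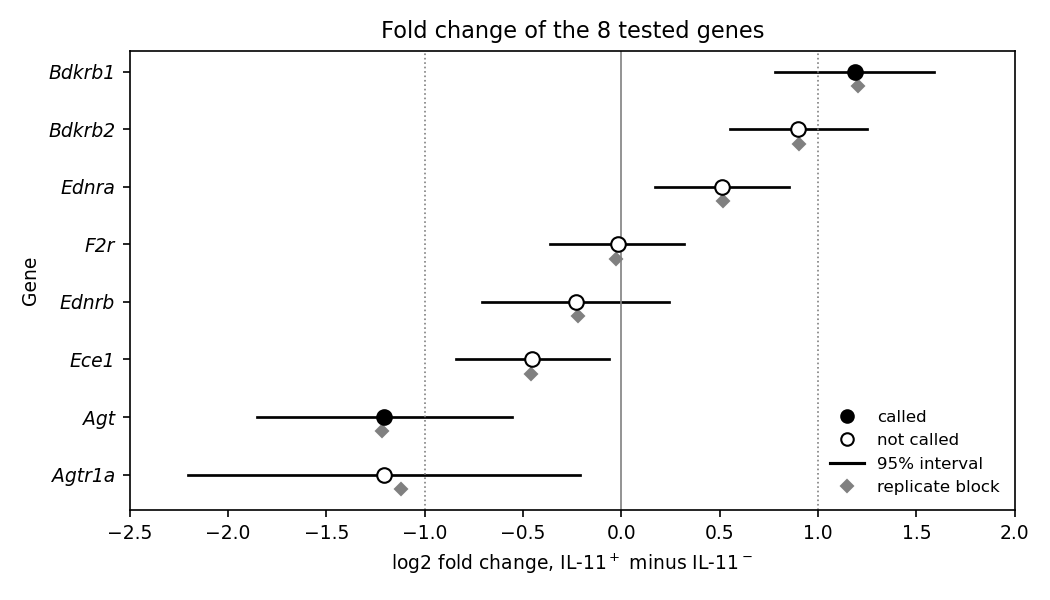
Log2 fold change (IL-11+ minus IL-11-) of the 8 tested members with 95% intervals from edgeR's quasi-likelihood fit, filled where the gene was called, with a grey diamond for the estimate when the replicate number is a block and dotted lines at a fold change of 2 in either direction. *Bdkrb1* (1.19) and *Agt* (-1.21) were called, and *Agtr1a* (-1.21) has the widest interval.

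Of the 2 protease-activated receptors among the members, only *F2r* reached the filter and was tested. *F2r* (chr13:95601803-95618487, minus strand) encodes PAR1, the main thrombin receptor of mesenchymal cells. It had 214, 216 and 233 tags in the IL-11- libraries and 206, 198 and 180 in the IL-11+ libraries. After scaling, the groups overlapped, at 199.7 ± 7.28 and 197 ± 23.6 normalized CPM (SD over 3 libraries). The log2 fold change was -0.02 with a 95% interval from -0.36 to 0.32, so that a fold change of 2 in either direction lies outside the interval.

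*F2rl1* encodes PAR2, which trypsin-like proteases activate, and was near the limit of counting. It had 0, 1 and 1 tags in the IL-11- libraries and 3, 1 and 4 in the IL-11+ libraries, with 2 and 8 tags in all, and after scaling it was higher in 3 of 3 same-numbered pairs. The pooled ratio of IL-11+ to IL-11- was 4.24 with an exact 95% counting interval from 0.846 to 41, which includes equality. The ratio of *F2r* to *F2rl1* tags within libraries differed by -1.65 on the log2 scale (exact permutation test, two-sided, p = 0.1, the smallest possible, adjusted p = 0.3 over 3 receptor pairs), a value that rests on at most 4 *F2rl1* tags per library. Because IL-11- replicate 1 had 0 *F2rl1* tags, 0.5 tags were added to each count before the ratio was taken. With 1 tag added instead, the difference was -1.29. Both genes lie on the minus strand of chromosome 13, 76.6 kb apart with 0 protein-coding genes between them.

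For each called member, the 3 tested genes with the most similar course over the 6 libraries were picked by Euclidean distance between centred log2 CPM. For *Bdkrb1* they were *Mlec*, *P3h1* and *Slc39a14* (distances of 0.315, 0.344 and 0.377). For *Agt* they were *Agfg2*, *Prkar2b* and *Smarcal1* (distances of 0.193, 0.245 and 0.311).

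The other genes of these systems put the receptors in context. Kinins are formed from kininogens and are trimmed or destroyed by peptidases. Of 5 tested genes for kinin formation and breakdown, 1 was called higher and 2 lower by the edgeR quasi-likelihood test (2 and 2 at an unadjusted p under 0.05), with a median log2 fold change of -0.67 (-0.01 over all tested genes, of which 3.44% were called higher and 6.37% lower). The higher gene was *Cpm*, carboxypeptidase M, which removes the last arginine of kinins and so makes ligands of the B1 receptor. It had 17, 16 and 25 tags in the IL-11- libraries and 355, 75 and 82 in the IL-11+ libraries. All IL-11+ libraries were higher, with replicate 1 far above the others, and the log2 fold change was 3.33 (SE 0.509, Benjamini-Hochberg adjusted p = 0.000128, edgeR quasi-likelihood test).

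The lower genes were *Ace* and *Kng2*. *Ace*, the angiotensin-converting enzyme that also destroys bradykinin, had 24, 14 and 35 tags in the IL-11- libraries and 8, 9 and 12 in the IL-11+ libraries. Its log2 fold change was -1.15 (SE 0.373), and that of the kininogen gene *Kng2* was -1.67 (SE 0.542), with Benjamini-Hochberg adjusted p of 0.0426 and 0.0442 in the edgeR quasi-likelihood test. Both calls were close to the threshold, and DESeq2 called *Cpm* higher and 0 of the 5 genes lower. *Xpnpep1*, an aminopeptidase that also degrades bradykinin, went the other way in all 3 same-numbered pairs, with a log2 fold change of 0.88 (SE 0.257, Benjamini-Hochberg adjusted p = 0.0247, edgeR quasi-likelihood test), and was not called.

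Of 6 tested other renin-angiotensin genes, 0 were called higher and 3 lower (*Enpep*, *Anpep* and *Ace*), beside 3.44% and 6.37% of all tested genes. Their median log2 fold change was -0.81. These counts are from the edgeR quasi-likelihood test, in which 0 genes were higher and 4 lower at an unadjusted p under 0.05, and DESeq2 called 0 higher and 2 lower. *Enpep*, the aminopeptidase that converts angiotensin II to angiotensin III, had 84, 79 and 110 tags in the IL-11- libraries and 12, 27 and 24 in the IL-11+ libraries; its log2 fold change was -1.95 (SE 0.25). For *Anpep*, which trims angiotensin III further, it was -1.59 (SE 0.487).

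Of 6 tested genes of thrombin regulation, none of them a receptor of this family, 1 was called higher and 0 lower by the edgeR quasi-likelihood test (2 higher and 0 lower at an unadjusted p under 0.05, and 1 and 0 by DESeq2), with a median log2 fold change of 0.41. Over all tested genes, edgeR called 3.44% higher and 6.37% lower. *Serpine2*, protease nexin-1, an inhibitor of thrombin, had 315, 222 and 232 tags in the IL-11- libraries and 1496, 730 and 1361 in the IL-11+ libraries, which is 2.37 on the log2 scale (SE 0.248). This stood beside the *F2r* estimate of -0.02. Another protease-activated receptor gene, *F2rl3*, had 2, 6 and 1 tags in the IL-11- libraries and 10, 6 and 14 in the IL-11+ libraries, was higher in 3 of 3 same-numbered pairs after scaling and did not reach the filter, so no test is given.

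Downstream of the receptors, 35 genes of shared G-protein signalling were tested, of which 3 were called higher and 8 lower by the edgeR quasi-likelihood test (4 and 10 at an unadjusted p under 0.05, and 3 and 6 by DESeq2), with a median log2 fold change of -0.13. Over all tested genes 3.44% were called higher and 6.37% lower. The higher genes were *Rgs16* (1.95), *Rgs2* (1.02) and *Prkcd* (1.20), where the RGS proteins shorten G-protein signals. By smallest p, the first 5 of the lower genes were *Rgs4* (-3.90), *Mylk* (-1.91), *Plcb4* (-2.95), *Ppp1r12a* (-1.24) and *Stim1* (-1.20). *Mylk* and *Ppp1r12a* encode myosin light chain kinase and a subunit of myosin phosphatase, which act on contraction in smooth muscle.

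Among 10 tested genes known to be induced by Gq or RhoA signalling, 1 was called higher, *Ptgs2*, and 0 lower by the edgeR quasi-likelihood test (2 higher and 5 lower at an unadjusted p under 0.05, and 1 and 0 by DESeq2), with a median log2 fold change of -0.30. The shares called over all tested genes were 3.44% higher and 6.37% lower. *Ptgs2* encodes cyclooxygenase-2 and had 487, 629 and 853 tags in the IL-11- libraries and 2492, 2154 and 2871 in the IL-11+ libraries, which is 2.10 on the log2 scale (SE 0.191). Other genes of this list went the other way, with log2 fold changes of -0.954 for *Fos*, -0.663 for *Ccn1* and -0.678 for *Ccn2*. Their Benjamini-Hochberg adjusted p was 0.000826, 0.029 and 0.0427 (edgeR quasi-likelihood test), and under the fold threshold they were not called. Among 16 tested receptors of other vasoactive mediators, 0 were called higher and 8 lower by the edgeR quasi-likelihood test, beside 3.44% and 6.37% of all tested genes. At an unadjusted p under 0.05 the counts were 0 and 9, and by DESeq2 they were 0 and 8. The median log2 fold change of the list was -0.92. The 5 lower ones with the smallest p were *P2ry14* (-2.34), *Ramp1* (-3.23), *Gucy1a1* (-1.25), *Adra1a* (-3.23) and *S1pr3* (-2.20). The difference between the members and this list was not tested.

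Genes of the members' systems are also expressed by smooth muscle cells and pericytes, which the sort keeps, so their markers are given. All 9 of 9 tested smooth muscle markers were called lower in IL-11+ fibroblasts. Their summed level was 2735, 3372 and 4233 normalized CPM in the IL-11- libraries and 107, 177.7 and 359.5 in the IL-11+ libraries, with *Myh11* as the most abundant in the IL-11- and *Tagln* in the IL-11+ libraries by group mean. Of 9 tested pericyte markers, 6 were called lower and 0 higher by edgeR as by DESeq2 (7 and 2 at an unadjusted p under 0.05 in edgeR), with sums of 2725, 2354 and 2160 in the IL-11- libraries and 1079, 904.6 and 806.8 in the IL-11+ libraries and with *Rgs5* as the most abundant in the IL-11- and *Abcc9* in the IL-11+ libraries. The smooth muscle markers and the called pericyte markers moved between the groups in the direction of *Agt*, *Agtr1a* and *Ece1*. Within the IL-11- libraries, *Agtr1a* was lowest in replicate 3 (8 tags), which had the highest smooth muscle sum and the lowest pericyte sum. The pericyte markers *Kcnj8* and *Abcc9* moved in the direction of *Bdkrb1*, *Bdkrb2* and *Ednra* instead, higher in 3 of 3 same-numbered pairs (log2 fold changes of 0.713 and 0.665, Benjamini-Hochberg adjusted p = 0.0394 and 0.0167, edgeR quasi-likelihood test), and were not called. Their part in the results was not tested.

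**Figure D3:**
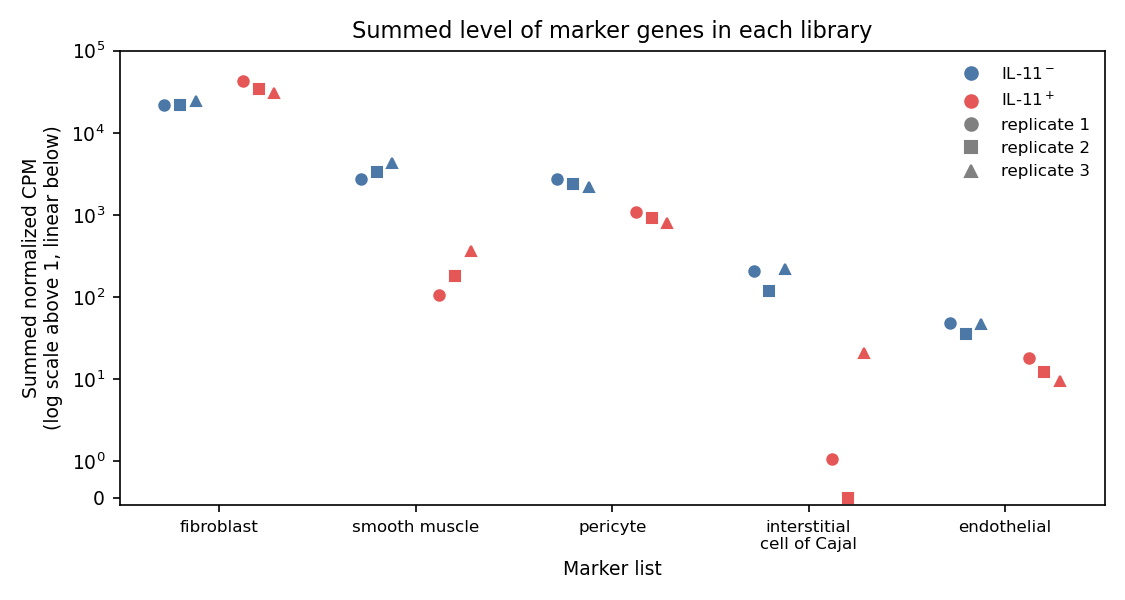
Summed normalized CPM of 5 marker lists in each library (log axis above 1 and linear below it, so that 0 can be drawn), with IL-11- libraries in blue, IL-11+ libraries in red and a symbol for each replicate number. Smooth muscle markers sum to 2735 to 4233 in IL-11- and to 107 to 359.5 in IL-11+ libraries, while fibroblast markers are high in all 6 libraries.

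Fibroblast markers were high in both groups, with sums of 22120, 22110 and 24640 normalized CPM in the IL-11- libraries and 42230, 33960 and 30310 in the IL-11+ libraries. *Dcn* was the most abundant, and 2 of 9 (*Col3a1* and *Pdpn*) were called higher and 0 lower by edgeR as by DESeq2 (5 and 1 at an unadjusted p under 0.05 in edgeR). The markers of interstitial cells of Cajal, *Kit* and *Ano1*, summed to 205.3, 119.7 and 217.6 in the IL-11- libraries and to 1.06, 0 and 20.98 in the IL-11+ libraries, with *Ano1* as the more abundant. Like the smooth muscle markers, these moved with the lower members, and their part was not tested.

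Markers of the endothelial, hematopoietic and epithelial cells that the sort removes had few tags, as had those of mesothelial cells, which it does not remove. Endothelial markers summed to 35.8 to 48.7 normalized CPM in the IL-11- and 9.537 to 18.02 in the IL-11+ libraries, with *Tek* as the most abundant by group mean. *Tek*, the only 1 of them that was tested, was called lower (-1.585, Benjamini-Hochberg adjusted p = 0.0085, edgeR quasi-likelihood test). *Egfl7* was at 0 in the IL-11- libraries, and *Pecam1*, *Emcn* and *Lyve1* were at 0 in the IL-11+ libraries. Leukocyte markers summed to 13.14 to 19.1 and 5.722 to 18.02, with *Cd68* as the most abundant by group mean and *Cd3e* at 0 in the IL-11+ libraries. Epithelial markers reached at most 14.78, in IL-11- replicate 3, with *Krt8* as the most abundant by group mean in the IL-11- and *Lgr5* in the IL-11+ libraries and *Krt20* at 0 in the IL-11+ libraries, and mesothelial markers, led by *Upk3b*, reached at most 17.24 and were at 0 in all IL-11+ libraries.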

How the data were processed

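RNA of 3 IL-11+ and 3 IL-11- libraries was analyzed. According to the methods and processing notes, the authors trimmed reads with Cutadapt 1.18, mapped them in 1 orientation to mm10 RNA with Bowtie2 2.2.5 and deposited tag counts per gene symbol without normalization; the handling of tags mapping to several genes is not given in the sources used here. Counts were analyzed in R 4.3.3 with edgeR 4.0.16 (TMM, quasi-likelihood test, Benjamini-Hochberg adjustment over 9334 genes with at least 10 tags in 3 libraries) and the thresholds of the methods. The scripts were tested on simulated data.

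Members and lists were chosen with earlier results of these data known. From pathway lists the called genes were named, at most 5 per direction by smallest p; from marker lists the most abundant gene and those at 0. *Agtr1b*, *Edn3*, *Ece2*, *Col3a1*, *Pdpn*, *Kcnj8*, *Abcc9*, *Xpnpep1*, *F2rl3*, *Fos*, *Ccn1* and *Ccn2* were named after their values were seen. Some listed symbols were not analysed here. Of the planned marker lists, 1 is not reported here.

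The methods name 3 mice. Same-numbered libraries deviated together from their group means (r of 0.232, 0.22 and 0.27 across 5064 genes, which are not independent), so the numbers were taken to pair the libraries. The main fit and the permutation tests used the group only, because the methods describe no pairing, and the replicate block is the paired alternative. Alternatives were RLE, library size only, iterative TMM, DESeq2 1.42.0, other filters, adjusted p alone, the replicate block and each library left out. Gene positions came from GENCODE (GRCm38) and promoters from RefSeq (7 of 10 members, GRCm38.p6).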

Additional observations from a re-analysis of the deposited data

How the results depend on the processing

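The call of *Bdkrb1* held in all 19 alternatives (log2 fold change 1.04 to 1.43). *Bdkrb2* was called in 2 alternatives, both without IL-11- replicate 2 (0.81 to 1.03 overall). *Agt* lost its call in 4 of 19, without IL-11- replicate 1 or IL-11+ replicate 3 (-1.40 to -0.88). *Agtr1a* was called in 4 of 18 (-1.68 to -0.82), and with 30 tags in 3 libraries it was not tested. *Ednra* (0.42 to 0.61), *Ednrb* (-0.48 to -0.05) and *Ece1* (-0.60 to -0.28) were called in none, and for *Ece1* the replicate block gave an adjusted p of 0.0457 by edgeR's quasi-likelihood test. *F2r* changed sign in 5 of 19, with 0.02 when no filter was set and -0.09 to 0.07 when a library was left out (0.00 without IL-11- replicate 1 or 2 on the genes of the 6-library filter). The cause was not tested.

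The number of members called lower was 2 with the replicate block and 2 with no filter, in both cases by *Agtr1a*, and 0 to 2 when a library was left out. The number called higher was 3 by adjusted p alone and 1 to 2 when a library was left out. Over all genes, 427 were higher and 767 lower of 20327 with no filter, 638 were higher by adjusted p alone, and 208 were higher and 326 lower with 30 tags in 3 libraries, where fewer genes (5275) were tested. Leaving out a library gave 251 to 306 higher and 341 to 579 lower genes, or 267 to 329 and 483 to 580 on the genes of the 6-library filter. The replicate block gave 337 higher and 648 lower genes and changed no call of a member other than *Agtr1a*. Leaving out a library on the genes that pass with all 6 was chosen after seeing the data.

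The ratio within receptor pairs kept its sign in all alternatives, from 0.05 to 0.58 for the kinin, 0.50 to 0.99 for the endothelin and -2.13 to -1.14 for the protease-activated receptors, and the replicate block gave 0.31, 0.74 and -1.65 with exact sign flips that cannot give a p under 0.25. Depth limits *Edn1* and *F2rl1*, and the calls of *Agtr1a* and *Agt* changed when single libraries were left out.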
